A study of Drosophila melanogaster with 3 samples.

Results

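The 500 strongest regions recovered with GFP-tagged chiffon from fly embryos were examined against the other 4535 regions of the same list. The members were the 500 regions of highest signal in the list that the authors kept as reproducible on the genome build dm6, where signal is the score their peak caller gave to each region. That score chose the members, so signal, rank and width are given below as descriptions without a test, and tests were run on gene annotation and DNA sequence alone.

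The experiment was chromatin immunoprecipitation with sequencing (ChIP-seq), in which protein and DNA are recovered together with an antibody and the DNA is sequenced. It formed 1 group of 3 biological replicates of Drosophila melanogaster embryos, with both sexes pooled and an age of 0 to 24 hours. The flies, of a line named chif-RB-GFP, carried a stable transgene for chif-eGFP, a fusion of chiffon with green fluorescent protein at the C-terminus per the labels, and the antibody was raised against GFP. Whole embryos were used, with chromatin sonicated to 200 to 800 bp, so regions of all tissues and of all stages in that span are mixed, and an untagged line was not analysed here. The label for the antibody names chif, while the sample text names GFP. The depth of the libraries is unknown, because no counts of reads come with the lists. Where nothing else is said, a p-value compares regions of this list and not samples.

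In flies, chiffon takes the place of Dbf4, the regulatory partner that switches on the Cdc7 kinase when replication origins fire. The gene is also known for a product that joins the histone acetyltransferase Gcn5, and for its part in the amplification of eggshell genes in ovarian follicle cells. Promoters in flies are grouped by short sequence elements, among them the DNA replication-related element (DRE) and Motif 1 of housekeeping genes, the TATA box of regulated genes, and repeats of alternating guanine and adenine that are bound by GAGA factor.

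DNA at the summits of the strongest members is shown first, because some of the results below concern its sequence. Sequences are from the plus strand of the Release 6 genome, the assembly behind dm6, and run from 100 bases before the summit to 100 bases after it, stopping short where an annotated untranslated region begins. Capitals mark the 6-base words that were more common in members than in the rest of the list. The first lies in an intron of ush at 2L:480958-481158, the second just upstream of CG14100 at 3L:19590525-19590720, the third in ph-p at X:2137243-2137443 and the fourth upstream of Ugalt at X:2703853-2703982.
ush intron, rank 1: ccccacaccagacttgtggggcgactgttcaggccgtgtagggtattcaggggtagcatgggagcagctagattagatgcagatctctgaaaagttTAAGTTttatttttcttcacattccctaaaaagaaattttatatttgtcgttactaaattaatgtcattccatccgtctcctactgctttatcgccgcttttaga
CG14100 promoter, rank 3: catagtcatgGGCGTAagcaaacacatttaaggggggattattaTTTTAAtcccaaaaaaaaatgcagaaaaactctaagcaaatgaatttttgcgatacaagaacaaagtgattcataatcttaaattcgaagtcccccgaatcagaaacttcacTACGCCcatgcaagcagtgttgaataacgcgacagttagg
ph-p, rank 4: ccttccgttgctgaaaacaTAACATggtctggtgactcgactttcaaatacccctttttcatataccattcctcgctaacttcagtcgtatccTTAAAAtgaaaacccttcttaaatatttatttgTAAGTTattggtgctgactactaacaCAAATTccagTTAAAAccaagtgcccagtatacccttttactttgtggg
Ugalt promoter, rank 6: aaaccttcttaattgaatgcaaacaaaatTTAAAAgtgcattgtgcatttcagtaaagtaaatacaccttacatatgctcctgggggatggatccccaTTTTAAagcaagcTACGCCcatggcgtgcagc
The word GGCGTA, or its reverse complement TACGCC, occurs in the second and the fourth of them.

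Alternating A and G beside the summit is shown by the members at ranks 1 and 9, chosen as strong examples that carry it more than 100 bases from the summit. At rank 9 the longer marked run lies within 100 bases of the summit, and the shorter one lies beyond. Each stretch holds 300 bases, with the summit 50 bases from one end, and capitals mark the 6-base word AGAGAG or its reverse complement CTCTCT. They lie in the same ush intron at 2L:480809-481108, where the summit is toward the right, and in an intron of the kinase gene Lk6 at 3R:11760996-11761295, where it is toward the left.
ush intron, wider view, rank 1: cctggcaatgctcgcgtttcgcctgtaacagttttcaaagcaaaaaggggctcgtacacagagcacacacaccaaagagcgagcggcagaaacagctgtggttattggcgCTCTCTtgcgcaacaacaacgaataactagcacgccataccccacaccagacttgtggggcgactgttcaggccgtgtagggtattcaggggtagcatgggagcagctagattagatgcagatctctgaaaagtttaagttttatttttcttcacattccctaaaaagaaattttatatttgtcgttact
Lk6 intron, rank 9: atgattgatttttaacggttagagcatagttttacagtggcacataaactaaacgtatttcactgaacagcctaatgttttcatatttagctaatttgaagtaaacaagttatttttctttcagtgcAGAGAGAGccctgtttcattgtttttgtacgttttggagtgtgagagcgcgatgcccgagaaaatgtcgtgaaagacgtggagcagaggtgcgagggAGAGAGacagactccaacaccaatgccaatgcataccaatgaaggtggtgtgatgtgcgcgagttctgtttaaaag
Both stretches are poorer in G and C around the summit end than toward the other end.

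Members with a core promoter element that was rarer among the 500 are shown last, with the element in capitals. Motif 1 occurs at rank 64, an intergenic summit on 2L:3832423-3832623 whose nearest protein-coding start site is that of slp2. The element called Ohler motif 8 occurs at rank 150, on 3L:3250148-3250348, where the nearest annotated start site is that of a noncoding gene.
Motif 1, rank 64: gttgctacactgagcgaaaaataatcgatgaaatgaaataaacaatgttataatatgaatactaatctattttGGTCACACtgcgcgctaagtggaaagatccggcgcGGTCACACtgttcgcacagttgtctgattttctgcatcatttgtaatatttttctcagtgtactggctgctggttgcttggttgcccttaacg
Ohler motif 8, rank 150: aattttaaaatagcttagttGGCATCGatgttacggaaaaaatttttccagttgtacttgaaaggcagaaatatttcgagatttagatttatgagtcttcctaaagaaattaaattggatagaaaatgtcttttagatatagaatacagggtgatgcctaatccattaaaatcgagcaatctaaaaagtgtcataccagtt
In the first of them the element occurs at 2 places on the same strand.

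Signal, which set the members apart by construction, spanned a wide range among them. It ran from 462 to 3635 with a median of 640 (quartiles 534 and 861), and in the remaining regions from 106 to 461 with a median of 167. At the lower end the list was continuous: ranks 499 and 500 both had a signal of 462, and ranks 501 and 502 both had 461. The member at rank 499 lay upstream of CG14352 and Rab3GAP1, and rank 500 lay away from genes with hng3 as the nearest. Just outside, rank 501 lay in wit, which encodes a receptor of BMP signals at the neuromuscular junction, and rank 502 in Tpr2. Median width was 302 bp in members and 410 bp in the rest as a whole, but members were not the narrowest regions. Those of ranks 505 to 1008, just below the members, had a smaller median width than the members. Only 5 members (1.00%) had a width of exactly 410 bp, against 3675 (81.0%) of the remaining regions, so most weaker regions carry the same width with the summit at the middle.

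At the strongest region, in an intron of ush, which encodes a partner of GATA transcription factors, the signal was 1292, 911 and 1434 in replicates 1, 2 and 3. Rank 2 was at px, a gene of wing vein patterning (2R:22514083-22514521), with signals of 1272, 820 and 1509. The region upstream of CG14100 had 1088, 997 and 1286. These regions held places 1 to 4 of every replicate's own list. At ph-p, the gene of the Polycomb protein Polyhomeotic proximal, the signals were 980, 815 and 1171. At the region shared by Chro, the gene of the interband protein Chromator, and Ssl1, the gene of a TFIIH subunit, they were 902, 848 and 1120. Replicate 2 gave the lowest signal at all 5 and replicate 3 the highest, but the scale of signal is not stated, so only ranks are compared across replicates: those of ph-p were 5, 5 and 4 and those of Chro 7, 3 and 5.

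Most members were also among the first 500 of each replicate. A member's rank in a replicate is that of the strongest replicate region whose summit lies inside it. Of the 500 members, 453 (90.6%), 416 (83.2%) and 456 (91.2%) ranked within 500 in replicates 1, 2 and 3. All 3 replicates placed 358 members (71.6%) within their first 500, exactly 2 replicates placed 109, 1 replicate placed 33 and none placed 0. Replicates 1 and 3 were closer to each other than to replicate 2: over the 500 members, the correlation of log10 rank was 0.917 between replicates 1 and 3, 0.687 between 1 and 2 and 0.704 between 2 and 3. These coefficients are descriptions, since the members were chosen on the pooled reads of the same libraries.

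**Figure D1:**
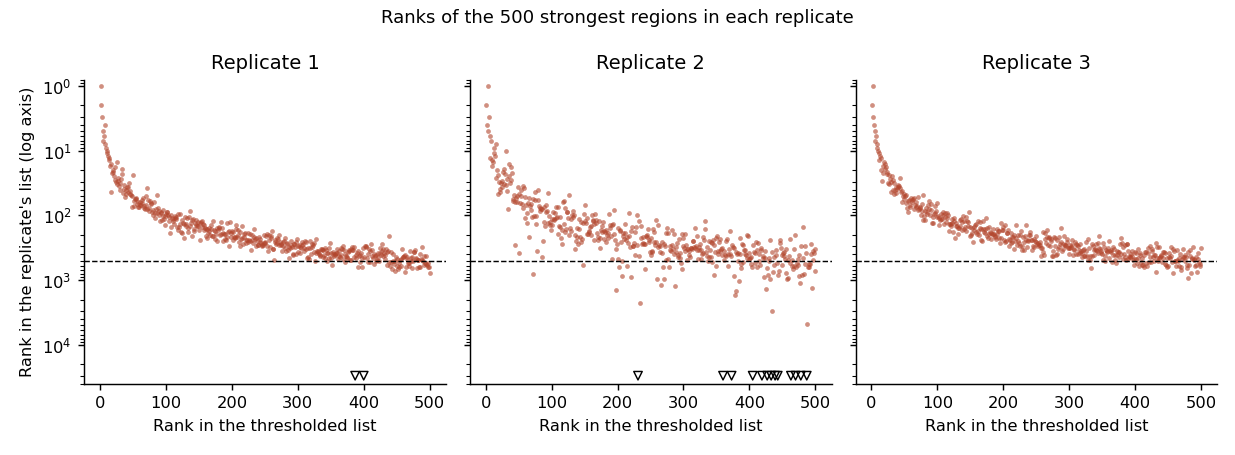
Rank of each of the 500 members in the list of each replicate (vertical, log axis, strongest at the top) against its rank in the thresholded list (horizontal). The dashed line is rank 500, and open triangles are the 2 members in replicate 1 and 13 in replicate 2 with no replicate summit inside; the points of replicate 2 scatter more widely than those of replicates 1 and 3.

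A few strong regions had no counterpart in a single replicate. Of the 500 members, 2 held no summit of replicate 1, 13 held none of replicate 2 and 0 held none of replicate 3. In 4 of these 15 cases a summit of that replicate lay 39 to 195 bp away. The other 11 all concerned replicate 2, whose nearest summit was at least 981 bp away. The 5 strongest of the members absent from replicate 2 were ranks 231, 360, 373, 405 and 419. Rank 231 was in the 3' UTR of Cals, the gene of the synaptic cadherin calsyntenin (4:1113161-1113474), and ranked 199 and 254 in replicates 1 and 3. Rank 360 was at the promoter of bun, rank 373 near CG42807 and rank 405 in kis, which encodes a chromatin remodeller of the Trithorax group. Rank 419 was upstream of CG2865 and ranked 501 and 322. The 5 members whose ranks lay farthest apart, with a missing region placed last, were ranks 231 and 419, rank 439 near the homeodomain gene zfh2 (4:497798-498003, ranked 207 and 430 in replicates 1 and 3), rank 427 between CG7810 and CG7806 (278 and 437), and rank 387 in prage. The last of these ranked 647 and 274 in replicates 2 and 3 and held no summit of replicate 1, but it is 1 of the 4 near cases: a replicate 1 summit of rank 428 lay 195 bp away, so its place here rests on the match by summit. When any overlap counted as a match, 0 members lacked a region of replicate 1.

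Chromosome 4 was thin in replicate 2 as a whole. It held 28 of the 30000 regions of replicate 2, against 278 in replicate 1 and 316 in replicate 3. Of the 3 members on that chromosome, an intergenic region whose nearest start site is that of lncRNA:CR43437 (rank 148) was the single one that held a summit of replicate 2, with rank 592 against 144 and 90. What part the library of replicate 2 has in these cases was not tested.

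The strongest regions lay at promoters more often than weaker ones. A promoter summit is here within 500 bp of any annotated transcription start site (TSS). Of the 500 members, 287 (57.4%, 95% exact binomial interval 52.9 to 61.8%, counting error only) were at promoters, against 2101 of 4535 (46.3%) in the rest, an odds ratio of 1.56 (Fisher's exact test, two-sided, Benjamini-Hochberg adjusted over 7 classes, adjusted p = 1.98e-05). Introns held 138 members (27.6% against 34.8%, odds ratio 0.715, adjusted p = 0.00427) and intergenic sequence 60 (12% against 16.4%, 0.696, adjusted p = 0.0234, Fisher's exact test). The shares of classes add up to the whole: among the 213 members outside promoters, introns held 64.8% as they did in the rest, and intergenic sequence 28.2% against 30.5% (adjusted p = 0.801, Fisher's exact test). The promoter difference was larger for the 250 strongest regions (63.6% against 46.6%) and did not pass with a promoter distance of 250 bp (42.8% against 37.7%, odds ratio 1.24, adjusted p = 0.102, Fisher's exact test). The first 500 regions of each replicate's own list held 57.9% ± 3.42 promoter summits (SD, n = 3) and the regions below them, down to the same list length, held 43.9% ± 8.22. The values of the first group were 56.2%, 61.8% and 55.6% in replicates 1, 2 and 3. Those of the second were 49.4%, 34.4% and 47.7%. Coding exons held 5.82% of the second group in replicate 2, against 0.287% and 0.176% in replicates 1 and 3. These lists come from the reads that were pooled to choose the members, so they are not independent support for the difference.

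**Figure D2:**
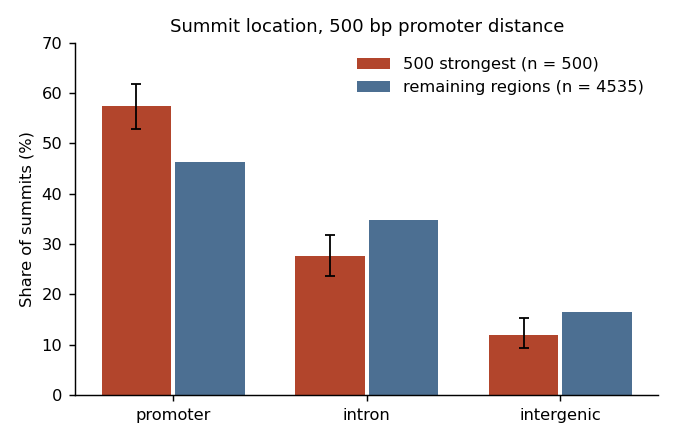
Share of summits (vertical, %) at promoters, in introns and in intergenic sequence for the 500 members and the 4535 remaining regions; bars on the members are 95% exact binomial intervals. Promoters hold 57.4% of members and 46.3% of the rest, while introns and intergenic sequence hold less.

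At promoters, the strongest summits sat farther upstream of the gene. Of the promoter members, 269 lay that close to a protein-coding TSS and 18 to a noncoding one only. The median position of the 269 summits was -140 bp from the nearest protein-coding TSS (quartiles -231 and -81 bp), against -90 bp (quartiles -168 and -27 bp) for 1976 summits in the rest. Only 71 of the 269 (26.4%, 21.2 to 32.1%) lay within 100 bp of the TSS, against 939 (47.5%), an odds ratio of 0.396 (Fisher's exact test, two-sided, adjusted over 3 promoter measures, adjusted p = 8.34e-11). The difference was widest right at the gene start, where the 50 bp before the TSS held 3.72% of member summits and 16.4% of the others. In the 3 bins of 50 bp next beyond 100 bp upstream the members led, with 19%, 16.4% and 10.8% against 17.2%, 8.25% and 6.02%, while in the outermost 2 bins, beyond 400 bp, the rest led with 2.58% and 1.92% against 1.12% and 1.86%. In the lists of single replicates, 26% ± 1.74 (SD, n = 3) of coding promoter summits among the first 500 lay within 100 bp, against 46.7% ± 9.95 of those below, with 25.2%, 24.8% and 28.0% against 52.2%, 35.2% and 52.7% in replicates 1, 2 and 3. Every replicate showed the direction, on the same reads that were pooled, and it held under each alternative run, with odds ratios from 0.343 to 0.424. The low share was not particular to the 500. Among the 1000 strongest regions, 29.3% of coding promoter summits lay within 100 bp, against 49.4% of those below.

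**Figure D3:**
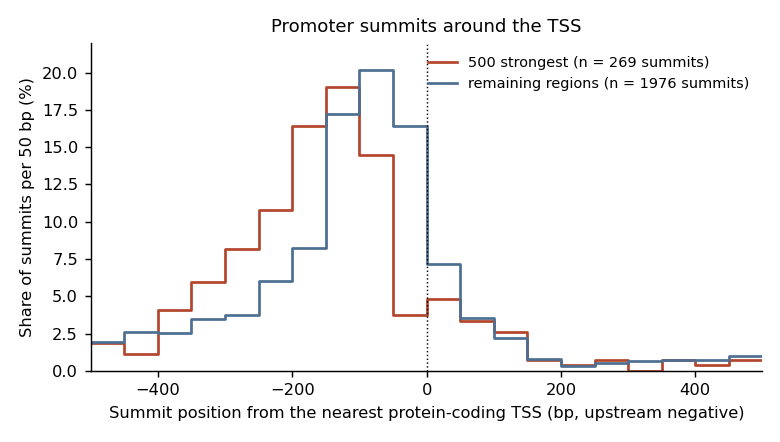
Share of coding promoter summits (vertical, % per 50 bp) by position from the nearest protein-coding TSS (horizontal, bp, upstream negative) for 269 member summits and 1976 others. The members peak in the bin just beyond 100 bp upstream, the rest in the bin from 51 to 100 bp, and members are scarce in the last 50 bp before the TSS.

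The other promoter measures did not pass. Summits upstream of the nearest TSS made up 85.5% of the 269 and 82.4% of the rest (adjusted p = 0.343), and summits between head-to-head genes made up 34.9% and 33.6% (adjusted p = 0.680, Fisher's exact test). With a promoter distance of 250 bp the head-to-head share was 37.1% against 24.1% (odds ratio 1.85, adjusted p = 0.000181, Fisher's exact test), so that call depends on the distance. Between members and the rest no chromosome arm passed: 2L held 23% of members against 18.8% of the rest and 3R 100 members against 24.5% of the rest (adjusted p = 0.0819 for each over 6 arms, Fisher's exact test), with 2 arms at an unadjusted p under 0.05. Annotated tRNA, snRNA, snoRNA or microRNA precursor genes lay within 500 bp of 3 members (0.600%) and 35 other regions (0.772%, p = 1.00, Fisher's exact test). The 3 were tRNA:Tyr-GTA-1-8 (rank 126), mir-92a, which lies within jigr1 (rank 208), and tRNA:Gln-TTG-2-1 (rank 474). A summit fell in an annotated transposable element in 1 member and in 15 of the other regions.

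The DNA under the strongest summits was poor in G and C at the centre and richer to either side. Within 50 bases of the summit, mean GC content was 32.3% in members and 35.7% in the rest, and more than 100 and up to 200 bases away it was 44.3% and 41.5%. More than 300 and up to 400 bases away the values came together at 44.4% and 44.1%. At promoters the step from centre to flank was 31.6% to 43.7% in members and 37.6% to 39.8% in the rest, and away from promoters 33.3% to 45.1% against 34.1% to 42.9%. This profile was drawn up after the data were seen and carries no test. In the tested measure, windows of 100 bases to either side exceeded the median GC content of the list (35.8%) in 208 members (41.6%) against 48.2% (odds ratio 0.767, p = 0.00537, Fisher's exact test). That direction turned with the width of the window: with 50 bases the odds ratio was 0.494, and with 200 bases it was 1.24 (53.8% against 48.5%, p = 0.0267, Fisher's exact test). It also turned away from promoters (50.7% against 43.2%, odds ratio 1.35, p = 0.0367, Fisher's exact test). Most weaker regions carry 1 fixed width with the summit at the middle, and the part of this in the sharper profile of members was not tested.

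**Figure D4:**
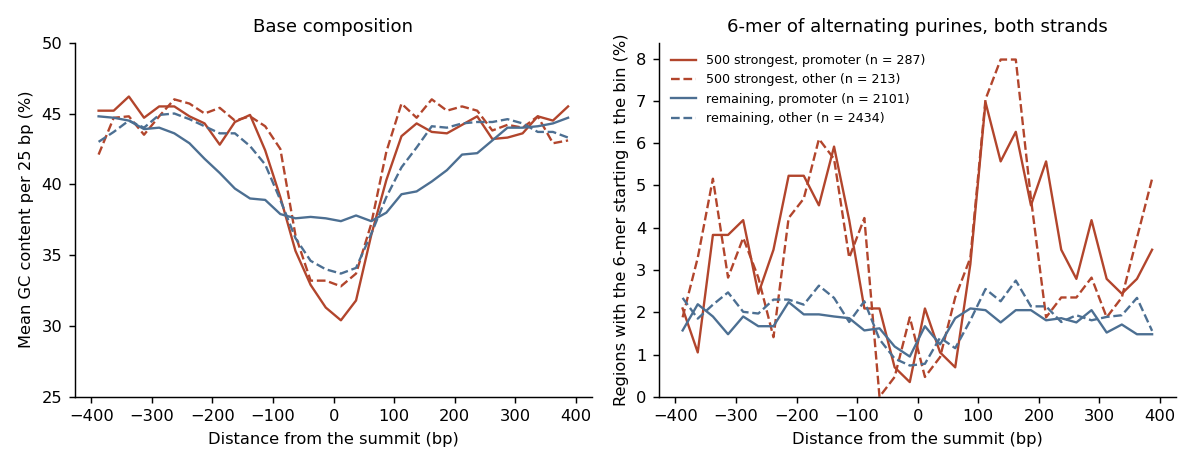
Left, mean GC content (vertical, % per 25 bp) by distance from the summit (horizontal, bp). Right, share of regions with a 6-base run of alternating adenine and guanine starting in each bin. Solid lines are promoter summits and dashed lines the others, for members and the rest; members dip to 30.4% GC in the bin from 0 to 24 bp at promoters and carry more of the runs in every bin from 100 to 200 bp on both sides, while some bins farther out go the other way.

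Repeats of alternating A and G were more common around the strongest summits, in wide windows, and scarce at their centre, as they were in the rest. With windows of 200 bases to either side, the word AGAGAG or its reverse complement occurred in 35.0% of members and 20.8% of the rest (odds ratio 2.05, adjusted p = 9.04e-09 over all 6-base words, Fisher's exact test). The shifted word GAGAGA occurred in 33.8% against 21.1% (adjusted p = 7.93e-07), and GGAGAG in 21.2% against 11.6% (adjusted p = 6.55e-06, Fisher's exact test). Overlapping words share bases and are not independent. More than 100 and up to 200 bases away, AGAGAG started in 30.4% of members and 13.9% of the rest, within 50 bases of the summit in 3.80% and 3.90%, and more than 300 and up to 400 bases away in 18.4% and 12%. The 2 outer measures pool both sides and span more bases than the centre, so their shares are not on its scale. In equal bins of 25 bp, members had 1.00% and 1.40% to the left and right of the summit. They had 3.80% and 7.00% in the bins from -125 to -101 and from 100 to 124 bp. The flank shares were 29.6% against 12.4% at promoters and 31.5% against 15.1% elsewhere, and these, like the profile, carry no test. In the narrower windows of 100 bases to either side, the listed GAGA element, GAGAGAG, occurred in 3.00% of members, in 3.5% of all regions and in 4.69% of the windows around 19253 protein-coding TSSs (members against the rest: odds ratio 0.840, adjusted p = 0.904, Fisher's exact test). A match is a string of letters and does not show that a factor was bound.

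Motif 1 and Ohler motif 8, both core promoter elements, were rarer within 100 bases of the strongest summits. Of 25 listed motifs searched on both strands in windows of 100 bases to either side, 0 (0%) were more common in members and 2 (8.0%) were less common at an adjusted p under 0.05. Motif 1, searched as GGTCACAC, occurred in 3 members (0.600%, 0.124 to 1.74%), in 2.78% of all regions and in 5.68% of TSS windows (members against the rest: odds ratio 0.194, adjusted p = 0.0121, Fisher's exact test). Ohler motif 8, searched as GGCANCG, occurred in 18 members (3.6%), in 6.73% of all regions and in 11.1% of TSS windows (odds ratio 0.490, adjusted p = 0.0308, Fisher's exact test). At promoters alone, Motif 1 was in 1 of 287 members (0.348%) and 5.90% of the rest, and DRE, searched as TATCGATA, was in 3.14% and 7.81%. Ohler motif 8 was there in 4.53% and 9.09% and did not pass (adjusted p = 0.0572, Fisher's exact test). It did not pass either among regions with no stronger one within 1 kb (adjusted p = 0.0616, Fisher's exact test). Over all windows DRE did not pass (1.80% of members against 3.67% of all regions and 6.45% of TSS windows, odds ratio 0.454, adjusted p = 0.139, Fisher's exact test). Summits of members also lay farther from the TSS, where such elements sit, and the part of that distance in these shares was not tested. Neither motif passed without replicate 2, with adjusted p-values of 0.0750 and 0.0616, or among the 250 strongest regions, with 0.740 and 0.445 (Fisher's exact test). Motif 1 did not pass with windows of 50 or 200 bases (adjusted p = 0.204 and 0.309, Fisher's exact test). Both passed with 1000 members (adjusted p = 1.26e-05 and 9.79e-05, Fisher's exact test). The low shares were not particular to the 500: in ranks 505 to 1008, Motif 1 was in 0.794% and Ohler motif 8 in 3.97% of regions. The direction turned for Motif 1 away from promoters (odds ratio 1.77, adjusted p = 1.00) and for Ohler motif 8 with windows of 200 bases to either side (1.01, adjusted p = 0.990, Fisher's exact test).

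The remaining listed motifs did not pass. TATAAA of the TATA box occurred in 34.2% of members and 32.8% of all regions (odds ratio 1.07), and TAATTA of homeodomain proteins in 16.4% and 15.7% (1.06). CAGGTA, the site of the early activator Zelda, occurred in 4.60% and 4.49% (1.03, adjusted p = 0.988, Fisher's exact test).

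Among all words of 6 bases, counted with their reverse complements, 6 (0.288%) were more common in members and 5 (0.240%) were less common at an adjusted p under 0.05. The words that were more common were mostly rich in A and T. AACTTA occurred in 25.8% of members against 17.6% of the rest (adjusted p = 0.0172) and AATTTG in 36% against 26.9% (adjusted p = 0.0215, Fisher's exact test). TTAAAA was in 55.0% against 45.9%, ATGTTA in 22.2% against 15.4% and ATCCTA in 8.40% against 4.41% (adjusted p = 0.0316, 0.0357 and 0.0454, Fisher's exact test). The single word of the 6 with more G and C than A and T was GGCGTA, seen above at CG14100 and Ugalt. It was in 36 members (7.20%) against 3.37% of the rest (odds ratio 2.22, adjusted p = 0.0316, Fisher's exact test), with 9.06% against 4.00% at promoters and 4.69% against 2.83% elsewhere. The next 4 words by p-value, AAGGGG, then ACTTAA, then ATTTAA and then ATTAAA, had adjusted p-values from 0.0660 to 0.108 (Fisher's exact test).

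Of the words that were less common, 2 overlap housekeeping elements. CGATAG, which shares 5 bases with DRE, was in 5.00% of members against 10.8% of the rest (odds ratio 0.433, adjusted p = 0.0172, Fisher's exact test), and at promoters in 6.97% against 19.2%. CAACAC was in 7.20% against 13.2% (adjusted p = 0.0259) and CAACGC in 3.00% against 7.43% (adjusted p = 0.0316, Fisher's exact test). GTGTGA, which is inside Motif 1 on the other strand, was in 6.20% against 11.5%, and CCGTCG in 1 member (0.2%) against 2.47% (adjusted p = 0.0357 for both, Fisher's exact test). The next 5, namely ACAACA, then CGGCAA, then CCGATA, then CAAGCG and then GCGGCA, had adjusted p-values from 0.0660 to 0.147 (Fisher's exact test). Counts of words moved with the replicates behind the ranking, from 1 to 3 more common without each replicate in turn, and no word passed among summits away from promoters.

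Genes at the members had varied roles. Of 13968 protein-coding genes, 385 (2.76%) had a member summit within 500 bp of a TSS and 2879 (20.6%) had any region of the list, so 13.4% of genes with a region had a member. Of the 500 members, 231 had no such gene, 162 had 1, 6 had 3 or more and the others had 2. The members' signal chose them, so counts of genes in lists are descriptions without a test, and with 2.76% of all genes as the base, most lists hold too few members to be told from it.

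Mitochondrial ribosome genes reached the highest ranks of any list of translation genes. Of 73 genes, 4 (5.48%) had a member: mRpS10 at rank 8 (signal 2594), mRpS23 at rank 14 (2151), mRpL41 at rank 17 (1807) and mRpL23 at rank 66 (1120). The first 2 share their region with another gene. Cytoplasmic ribosomal protein genes had 5 of 93 (5.38%), led by RpS27 (rank 207, signal 696), RpL7 (rank 234) and RpS20 (rank 253), although 63.4% of them had a region somewhere in the list. Translation factors had 3 of 37, namely eIF6 (rank 58, signal 1176), eIF3c (rank 351) and eEF1gamma (rank 488). Aminoacyl-tRNA synthetases had 2 of 32, SerRS (rank 319) and IleRS (rank 482), and the mitochondrial respiratory chain 1 of 84, ND-MWFE (rank 195).

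Among genes of chromatin and transcription, the strongest regions were those of ph-p at rank 4 and of Chro and Ssl1 at rank 5. Architectural and promoter-binding proteins had 2 of 19 genes, Chro at rank 5 and the insulator gene Cp190 at rank 251 (signal 640). Of 30 Polycomb and Trithorax group genes, ph-p at rank 4 was the single one. Mediator, TFIID and other general factors had 3 of 57: Ssl1 at rank 5, MED30 at rank 237 and MED27 at rank 258. Of 30 genes listed under SAGA and Gcn5 acetyltransferase, 1 had a member, NC2alpha (rank 209, signal 694), which encodes a subunit of negative cofactor 2. Replication licensing and firing genes had 0 of 26 and cell cycle regulators 0 of 33, although 8 and 18 of them had a weaker region. With 2.76% of all protein-coding genes as the base, lists of this size are too small for an absence to be told from it. The chif gene itself held the region of rank 10 in an intron (signal 2357), which is also within Hyls1, annotated over the same span. Reads from the transgene and from the gene cannot be told apart there.

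Developmental genes were represented by a handful of members. Kinases and phosphatases of signalling had 3 of 23 genes: gish, which encodes a casein kinase (rank 19, signal 1791), sgg, the gene of the Wnt pathway kinase GSK3 (rank 128, signal 852), and Src64B, a Src family tyrosine kinase (rank 445). Developmental signalling genes had 2 of 48, the EGF receptor ligand spi (rank 168) and cact, the inhibitor of Dorsal (rank 265). Mesoderm and muscle genes had 3 of 27: Msp300, which links nuclei to the cytoskeleton (rank 161), the titin-like sls (rank 199) and the myoblast fusion gene mbc (rank 371). Ecdysone response genes had 2 of 15, the transporter gene E23 (rank 154) and the nuclear receptor gene Eip75B (rank 297). Single members were the neural RNA-binding protein gene elav (1 of 29, rank 96, signal 982), the anterior determinant bcd (1 of 37 segmentation and homeotic genes, rank 361) and Hsp27 (1 of 24 heat shock genes, rank 409). Markers of the germ line (0 of 23), blood and fat body (0 of 21) and chemosensory receptors (0 of 179) had no member. In these lists 6, 3 and 1 genes had any region of the list of regions.

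**Figure D5:**
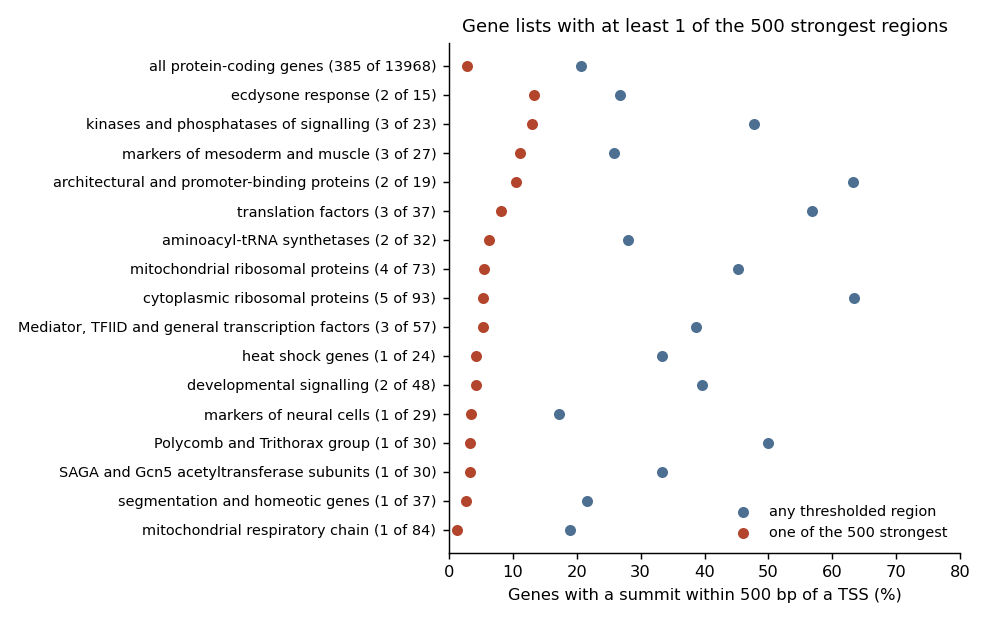
Share of genes (horizontal, %) with any region of the list and with a member summit within 500 bp of a TSS, for the lists with at least 1 member and for all 13968 protein-coding genes. Member shares run from 1.19% to 13.3% beside 2.76% for all genes, and each list rests on 1 to 5 genes with a member.

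Ranks 16 to 40 show what kind of site the strong regions were below the very first. Of these 25, the strongest was the region between Atat, an alpha-tubulin acetyltransferase gene, and Shc, an adaptor of receptor tyrosine kinases (rank 16, signal 1817, ranks 44, 8 and 29 in replicates 1, 2 and 3). Other regions between or shared by neighbouring genes were at Fbw5 and CG9147 (rank 18, signal 1795), Pal1 and Pdrg1 (rank 27), CG5757 and CG5098 (rank 38), Mkk4, a MAP kinase kinase gene, and SLIRP2 (rank 39), and tank and CG12194 (rank 40, signal 1482). Promoters of single genes were those of mRpL41 (rank 17), gish (rank 19), the RNA-binding protein gene larp (rank 20, signal 1781), CG18549 (rank 21), CG13921 (rank 22), the transcription factor gene Sox14 (rank 26, signal 1679), CG31145 (rank 33), the glutathione transferase gene GstE13 (rank 36) and the reticulon gene Rtnl1 (rank 37, signal 1501). A noncoding TSS alone was near rank 25, at lncRNA:CR44619, and rank 34, at lncRNA:CR31044. The region of rank 31, in an exon of lncRNA:CR44619, lay 949 bp from that of rank 25.

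Intronic regions in that span were in CG9663 (rank 23, signal 1709), CG32772 (rank 24, signal 1694), the neighbouring chromatin protein genes HmgD and HmgZ (rank 30), the kinase gene Tlk (rank 32) and the transcription factor gene Adf1 (rank 35). Intergenic ones were nearest to the mitotic cyclin gene CycB, 3346 bp away (rank 28, signal 1649), and 904 bp from lncRNA:CR45643 near tara (rank 29, signal 1637). The next intergenic member was at rank 42, 3761 bp from CG31668.

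Few regions of either set lay in transcribed exons outside promoters. Members and the rest had shares of 0.600% and 0.397% in 5' UTRs and of 0.600% and 0.243% in coding exons. In 3' UTRs the shares were 0.400% and 0.860%, and in noncoding exons 1.40% and 1.01%. In 5' UTRs there were 3 members, in Raf (rank 204, signal 701), Fbl6 (rank 276) and Mef2, the gene of a muscle transcription factor (rank 287). Coding exons held 3, in otp, a homeobox gene (rank 44, signal 1391), Pde1c (rank 266) and CG10357 (rank 422), and 3' UTRs held 2, in Cals (rank 231) and CG7872 (rank 395). Noncoding exons held 7, led by rank 31, by rank 43 (signal 1404) in lncRNA:CR46035 within osa, and by rank 170 in lncRNA:CR43334. None of these classes passed the test against the rest (adjusted p from 0.273 to 0.458, Fisher's exact test), with so few members that the intervals are wide.

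With other members alone counted as neighbours, most strong regions were single. Of the members, 399 had no other member within 10000 bp, 44 pairs did, and 3 neighbourhoods held 3 or more. The largest by span ran over 20511 bp on 3L (summits 633747 to 654258), with 5 members of signal 553 to 775, of which 3 were in lncRNA:CR43334 and 1 was at MED30 and Rev1. Another 5 lay over 10376 bp on X (2293719 to 2304095), 1 upstream of CG2865 and 4 in Raf, the kinase of the MAP kinase cascade, led by rank 51 with a signal of 1240. The last held the strongest region of all, in ush, with rank 100 upstream of cbt and rank 327 upstream of CG4297. Introns of Raf (ranks 51, 394 and 496) and of Hr4, a nuclear receptor gene of the ecdysone response (ranks 99, 278 and 300), were the only hosts of 3 intronic members among 132 host genes. Another region of the list lay within 1000 bp of 17.8% of members and 16.3% of the rest. The median distance to the nearest other region of the list was 3540 bp for members and 4419 bp for the rest.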

How the data were processed

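ChIP-seq was done on 3 biological replicates of 1 group. The authors deposited narrowPeak lists on dm6, 1 per replicate and 1 on pooled reads, each called against the same control file per the notes deposited with the samples, and a thresholded list made from these with the irreproducible discovery rate. The column used is the signal that the authors' peak caller gave to each region, deposited without a stated scale. Which aligner and caller made them is not given in the sources used here. The thresholded regions were those of highest signal in the pooled list, so the replicates are not independent of the members. Lists on dm3 were not used here.

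Members, motifs and gene lists were chosen with earlier results of these data known, and some spellings in the 21 gene lists were changed after the files were read, before their counts were seen. Of 488 listed symbols, 16 were found under an older symbol and 1 was not found.

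Summits were placed on Ensembl release 115 genes, as promoter first, then exon parts (UTRs, coding, noncoding), then intron and, failing all, intergenic. Sequence came from the Release 6 genome, which holds the coordinates of all regions. Windows of 201 bases were searched for 25 motifs and all 6-base words. Fisher's exact tests, two-sided, compared members with the rest, with Benjamini-Hochberg adjustment within each family and a threshold of 0.05. The test was tried on simulated windows with planted words. p-values treat regions as independent and compare regions, not samples. No test compares samples, and the depth is unknown because no counts are given. Regions and genes were named by rule: the 5 strongest, ranks 16 to 40, the 3 strongest of each class and gene list, neighbourhoods and hosts of 3 or more members, the limit, the 10 words of lowest p in each direction, and members missing from a replicate or with ranks farthest apart; rank 10 and rank 148 were named after their values were seen. Alternatives were 250 or 1000 members, each replicate left out of the ranking, isolated regions, 250 or 1000 bp to the TSS, windows of 50 or 200 bases to either side, promoters or other summits alone, and windows with at most 10% masked bases. Python 3.11.15, numpy 2.4.6, pandas 2.3.3, scipy 1.17.1 and matplotlib 3.10.9 were used.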

Additional observations from a re-analysis of the deposited data

How the results depend on the processing

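Values here are odds ratios of members against the rest, or counts of calls. At a promoter distance of 250 bp, the odds ratio was 1.24 for promoters, 0.821 for introns and 0.841 for intergenic sequence, none of which passed, and 1.85 for head-to-head promoters, which passed only there. The intron difference did not pass with 1000 members (0.901), and outside promoters the intron and intergenic odds ratios were 1.000 and 0.893. The head-to-head odds ratio fell below 1 with 250 members (0.971) and ran from 0.919 to 1.07 with each replicate left out. For GC content it was 0.923 with 250 members, 1.24 with windows of 200 bases, 1.35 away from promoters and 1.07 with at most 10% masked bases. For small RNA genes it was 1.06 with 250 members, 1.08 with 1000, and 0.776 to 1.07 with each replicate left out.

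Arms called were 0, and 0 to 1 with each replicate left out. Listed motifs called as more common were 0, and 1 with windows of 200 bases. Those called as less common were 2, and 0 with 250 members, with windows of 200 bases, away from promoters and with little masking, 1 among isolated regions and with windows of 50 bases, and 0 to 3 with each replicate left out. Motif 1 had an odds ratio of 1.77 away from promoters, and Ohler motif 8 of 1.01 with windows of 200 bases. More common words numbered 6, and 13 with windows of 200 bases, 11 at promoters, 2 among isolated regions, 0 away from promoters and with little masking, and 1 to 3 with each replicate left out. Less common words numbered 5, and 0 with 250 members, 11 with 1000, 13 at promoters, 2 among isolated regions, 1 with windows of 200 bases, 0 away from promoters and with little masking, and 1 to 2 with each replicate left out. The cause was not tested for these, though fewer regions enter the tests away from promoters and with little masking. Counting any overlap as a match, chosen after seeing the data, 360 members in place of 358 ranked within 500 in all 3 replicates. No paired analysis was possible because there is 1 group. Limits are the unknown depth, the fixed width of weaker regions, an untagged library not analysed here, and the promoter distance and window width, which end or turn the calls given above.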
